A study of Bos taurus with 12 samples.

Results

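Messenger RNA was sequenced from F7, a line of bovine embryonic stem cells, after culture in 4 conditions, and the libraries of one of them, 1/7MC, were set here against the libraries of the other 3. A gene was a member when its 3 values in 1/7MC all lay above, or all lay below, its 7 values in the other libraries compared. Of 14361 genes tested, 1917 lay above (13.3%) and 1285 lay below (8.95%). The groups were 1/7MC, with 3 libraries, MC, with 1 library used, 1/7MC+Pyr, with 3, and 1/7MC+Pyr+FGF, with 3. All are wild-type F7 cells, and the treatment label of MC is NC. The series title names pyruvate, feeder layers of low density and basic fibroblast growth factor (FGF), a recombinant human protein which is widely added to stem cell medium, and it raises pluripotency and metabolism as the questions. MC is not spelled out in the labels, nor is the species of the feeder cells given, so the group names are used as given. A single cell line was used, and nothing states that replicates came from separate cultures, so p-values measure the spread between these libraries, which may be technical.

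Values are counts scaled to library size (CPM), with sizes corrected here by trimmed-mean (TMM) factors from the deposited gene counts. Fold changes are log2 of 1/7MC over the equally weighted mean of the other 3 groups, followed by their standard error after ±, with n = 3 libraries in 1/7MC, 1 in MC, 3 in 1/7MC+Pyr and 3 in 1/7MC+Pyr+FGF. Adjusted p-values come from edgeR's quasi-likelihood test with Benjamini-Hochberg adjustment over all 14361 genes, and a gene was called at an adjusted p under 0.05. MC replicates 2 and 3 were left out of the comparison because their counts follow other gene models: of 61 shared Entrez identifiers, 53 had unequal counts in those 2 libraries, and 0 had in any other. MC therefore has no replicate of its own and was assumed to vary like the other groups. Total counts of the libraries used ran from 28762910 to 44440972. The share of mitochondrially encoded genes was 2.42% to 4.22%. On the leading principal component of log2 CPM, with 41.6% of the variance, the samples separated, with the 1/7MC libraries at -51.6 to -46.0 and the 7 others at 6.81 to 51.1.

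Embryonic stem cells keep a network of transcription factors, centred on POU5F1, that holds them undifferentiated, together with an epithelial state of adherens and tight junctions. Cells of an epiblast type that leave this state in culture can turn on genes of the anterior neural plate, from which the eye field arises, and of its borders, which give neural crest and pigment cells. Feeder cells supply matrix and signals, and FGF and TGF-beta signals are commonly used to hold bovine and human stem cells in culture, while WNT and BMP signals drive differentiation.

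The cell identity was checked first. POU5F1, a core factor of pluripotency, had 849, 683 and 822 CPM in 1/7MC, against 1118 CPM in MC, 1148, 1189 and 1186 CPM in 1/7MC+Pyr and 1365, 1006 and 1030.4 CPM in 1/7MC+Pyr+FGF. LIN28A, which binds RNA and blocks let-7 maturation, had 306 to 329.9 CPM in 1/7MC against 368 to 562 CPM in the 7 others, so markers of the labelled cell type were present in every library. Fibroblast and feeder markers were present in every library too: their 31 measured genes summed to 27537 to 38819 CPM in 1/7MC, against 10062 CPM in MC, 33136 to 50574 CPM in 1/7MC+Pyr and 22440 to 30954 CPM in 1/7MC+Pyr+FGF. The sum was lowest in MC, and 1/7MC overlapped 1/7MC+Pyr in it. In bulk libraries, fewer cells of a type and less RNA per cell cannot be told apart, and the part of feeder or fibroblast RNA in the results below was not tested.

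Members were called by edgeR more often than all genes, which the choice of members makes likely, since placement and test use the same values. Over all genes, 2715 (18.9%) were called higher in 1/7MC and 1746 (12.2%) lower. Of the 1917 genes above, 1766 were called higher, 763 of them at a fold of 2 or more, and of the 1285 below 1084 were called lower, 232 of them at such a fold. The genes above lay farther out: their median log2 fold change was 0.80 and the median gap between the nearest 1/7MC library and the nearest other library was 0.23 on the log2 CPM scale, against -0.49 and 0.13 for the genes below. A gap of at least 1 was found for 194 genes above and 21 below. Scaling by total counts alone gave 2303 genes above and 950 below, and RLE size factors gave 1802 above and 1418 below. With a mean of at least 1 CPM required, 1607 lay above and 1324 below. The balance of the directions therefore depends on the scaling and the filter. The filter follows the smallest group, MC with 1 library, so a gene could pass on 1 library. A group with 0 counts in all its libraries was found for 46 genes above and 1 below. The part of the filter in the wider gaps above was not tested. Just inside the boundary lay PAOX above, with 35.6 to 38.1 CPM in 1/7MC against 26.9 to 35.6 CPM in the 7 others, and PKM below, with 1692 to 1883 CPM in 1/7MC against 1883 to 2603 CPM in the 7 others. Just outside lay SLC44A1, with 54.4 to 60.3 CPM in 1/7MC against 43.4 to 54.4 CPM in the 7 others, and ZNF394, with 19.4 to 19.9 CPM in 1/7MC against 19.9 to 26.2 CPM in the 7 others. A further 2408 entries with at least 1 count were too low to test, and of these 39 lay above and 11 below.

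Across 34 gene lists, the share of members above was highest in lists of the developing eye, pigment cells, hindbrain and neural crest, and mesoderm, and the share below was highest in cholesterol synthesis and shared pluripotency. The lists were chosen with earlier results of these data known, so that choice may set part of their shares. The members are described list by list below, beside the background of 13.3% above and 8.95% below.

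**Figure D1:**
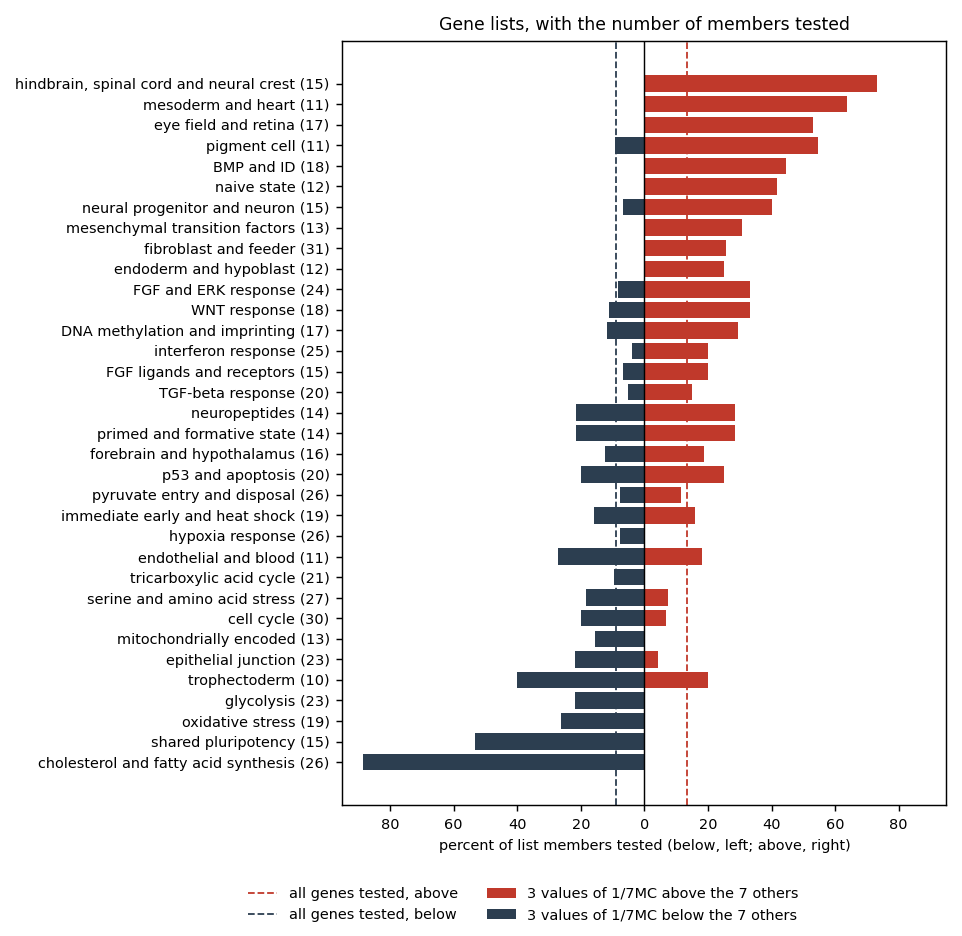
Percent of the tested members of each gene list whose 3 values in 1/7MC lay above the 7 others (right) or below them (left), with the number of members tested in parentheses and dashed lines at the shares over all genes tested, 13.3% above and 8.95% below. Cholesterol and fatty acid synthesis reached 88.5% below, and hindbrain, spinal cord and neural crest 73.3% above.

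Genes of the eye field and retina were high in 1/7MC. Of 17 tested, 9 lay above and none below, 11 were called higher, and the list's median log2 fold change was 2.07, against 0.01 over all genes. SIX6, a homeobox factor of the eye field and hypothalamus, had 25.5, 19.8 and 29 CPM in 1/7MC, against 2.1 CPM in MC, 0.628, 1.2 and 0.537 CPM in 1/7MC+Pyr and 0.69, 0.959 and 1.09 CPM in 1/7MC+Pyr+FGF. Each 1/7MC library exceeded every other library many times over, and the fold change was 4.42 ± 0.21 (adjusted p = 1.99e-08). PAX6, the transcription factor most closely tied to eye formation, had 65.6, 71.8 and 69.9 CPM in 1/7MC, against 24.3 CPM in MC, 10.2, 10.8 and 7.26 CPM in 1/7MC+Pyr and 7.16, 4.7 and 9.26 CPM in 1/7MC+Pyr+FGF. MC held the highest PAX6 value of the 7 others, still well under the lowest value of 1/7MC, and the fold change was 2.56 ± 0.17 (adjusted p = 2.15e-07).

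LHX2, needed for the optic vesicle to form, had 206 to 215 CPM in 1/7MC against 45.8 to 87.6 CPM in the 7 others, a fold change of 1.60 ± 0.13 (adjusted p = 1.47e-06). OTX1, a homeobox factor of the forebrain and eye, had 6.89 to 8.92 CPM in 1/7MC against 0.143 to 0.839 CPM in the 7 others (3.83 ± 0.28), and HMX1, a homeobox factor of the eye and ear, had 4.86 to 11.1 CPM in 1/7MC against 0.15 to 0.774 CPM in the 7 others (4.07 ± 0.31). HMX1 varied most among the 1/7MC libraries, where replicate 2 was lowest. ALDH1A3, an enzyme that makes retinoic acid in the ventral retina, had 13.9 to 25.2 CPM in 1/7MC against 1.32 to 3.07 CPM in the 7 others (3.07 ± 0.19), and RLBP1, the retinal-binding protein of pigment epithelium and Müller glia, had 14.4 to 20.3 CPM in 1/7MC against 0.322 to 3.86 CPM in the 7 others (4.08 ± 0.22). For RLBP1 the difference was smaller against MC, as its log2 fold changes were 2.22 against MC, 5.26 against 1/7MC+Pyr and 4.76 against 1/7MC+Pyr+FGF. RORB, a nuclear receptor of photoreceptor development, showed another order among the references: it had 10.1, 11 and 10.02 CPM in 1/7MC, against 0.196 CPM in MC, 3.98, 4.45 and 5.44 CPM in 1/7MC+Pyr and 2.14, 1.65 and 1.71 CPM in 1/7MC+Pyr+FGF. Its values were lowest in MC, and 1/7MC+Pyr+FGF lay under 1/7MC+Pyr by -1.32 (adjusted p = 0.00154) on the log2 scale.

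RAX, which marks the eye field from its start, did not separate. It had 7.43, 5.86 and 9.99 CPM in 1/7MC, against 12.5 CPM in MC, 0.489, 0.631 and 0.68 CPM in 1/7MC+Pyr and 0.759, 0.509 and 1.2 CPM in 1/7MC+Pyr+FGF, so MC lay above each 1/7MC library while the 6 supplemented libraries were low. Its mean fold change was 2.07 ± 0.22 (adjusted p = 1.02e-05), and RAX missed the threshold against MC (-0.68, adjusted p = 0.136) and when the 7 others were pooled as one group. SIX3, another eye field factor (0.08), overlapped and was not called, though it was without MC (0.33, adjusted p = 0.0435). TTR, made by the retinal pigment epithelium and choroid plexus, had 1.62, 1.16 and 1.7 CPM in 1/7MC, against 0 CPM in MC, 0.663, 0.717 and 1.29 CPM in 1/7MC+Pyr and 0.529, 0.3 and 0.476 CPM in 1/7MC+Pyr+FGF. A count of 0 in that MC library allows up to 0.0838 CPM (3 counts, counting error only), and TTR overlapped between 1/7MC and 1/7MC+Pyr.

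Pigment cell genes showed the same direction. Of 11 tested, 6 lay above and 1 below, 8 were called higher and 2 lower, and the median was 1.39. Their summed level was 256 to 269 CPM in 1/7MC, against 83.8 CPM in MC, 58.9 to 64.1 CPM in 1/7MC+Pyr and 42.7 to 50.3 CPM in 1/7MC+Pyr+FGF. MITF, the master regulator of pigment cells, had 36.8, 36.2 and 39.4 CPM in 1/7MC, against 7.43 CPM in MC, 4.15, 5.94 and 4.33 CPM in 1/7MC+Pyr and 3.13, 2.01 and 4.87 CPM in 1/7MC+Pyr+FGF, with a fold change of 2.92 ± 0.20 (adjusted p = 2.15e-07). PMEL, the fibril protein of the melanosome, had 139, 137 and 140.0 CPM in 1/7MC, against 11.1 CPM in MC, 10.9, 11.2 and 9.98 CPM in 1/7MC+Pyr and 6.65, 6.47 and 7.55 CPM in 1/7MC+Pyr+FGF. The 3 values of 1/7MC were close together and the 7 others ran from 6.47 to 11.2 CPM, which gave 3.89 ± 0.10 (adjusted p = 3.43e-11).

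DCT, an enzyme of melanin synthesis, had 26.9 to 36.2 CPM in 1/7MC against 0.839 to 4.58 CPM in the 7 others (3.79 ± 0.21). MLANA, a melanosome protein, was much lower in abundance, with 1.92 to 3.66 CPM in 1/7MC against 0 to 0.168 CPM in the 7 others (5.22 ± 0.45), and 2 of the 7 others held no count of it. EDNRB, a receptor of melanocyte and enteric precursors, had 10.7 to 14.7 CPM in 1/7MC against 0.615 to 4.96 CPM in the 7 others (2.64 ± 0.20). TYRP1, which acts beside DCT, lay above by a narrow margin because MC was close: it had 9.38, 11.4 and 10.1 CPM in 1/7MC, against 7.46 CPM in MC, 2.51, 3.18 and 1.65 CPM in 1/7MC+Pyr and 3.82, 3.21 and 2.88 CPM in 1/7MC+Pyr+FGF, and against MC alone it was not called (0.47, adjusted p = 0.258). TFEC, a relative of MITF in pigment epithelium and macrophages, had 4.25 to 4.43 CPM in 1/7MC against 0.0698 to 0.437 CPM in the 7 others (3.92 ± 0.28). OCA2, a melanosomal transporter, was the member below, with 6.31 to 7.59 CPM in 1/7MC against 9.49 to 16.9 CPM in the 7 others (-0.66 ± 0.16 (adjusted p = 0.00653)), and SOX10, the neural crest factor upstream of MITF in melanocytes, was the other pigment gene called lower (-1.81 ± 0.40 (adjusted p = 0.00369)). The receptor KIT overlapped, with 14.1 to 16.1 CPM in 1/7MC against 8.44 to 37 CPM in the 7 others, and was not called.

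**Figure D2:**
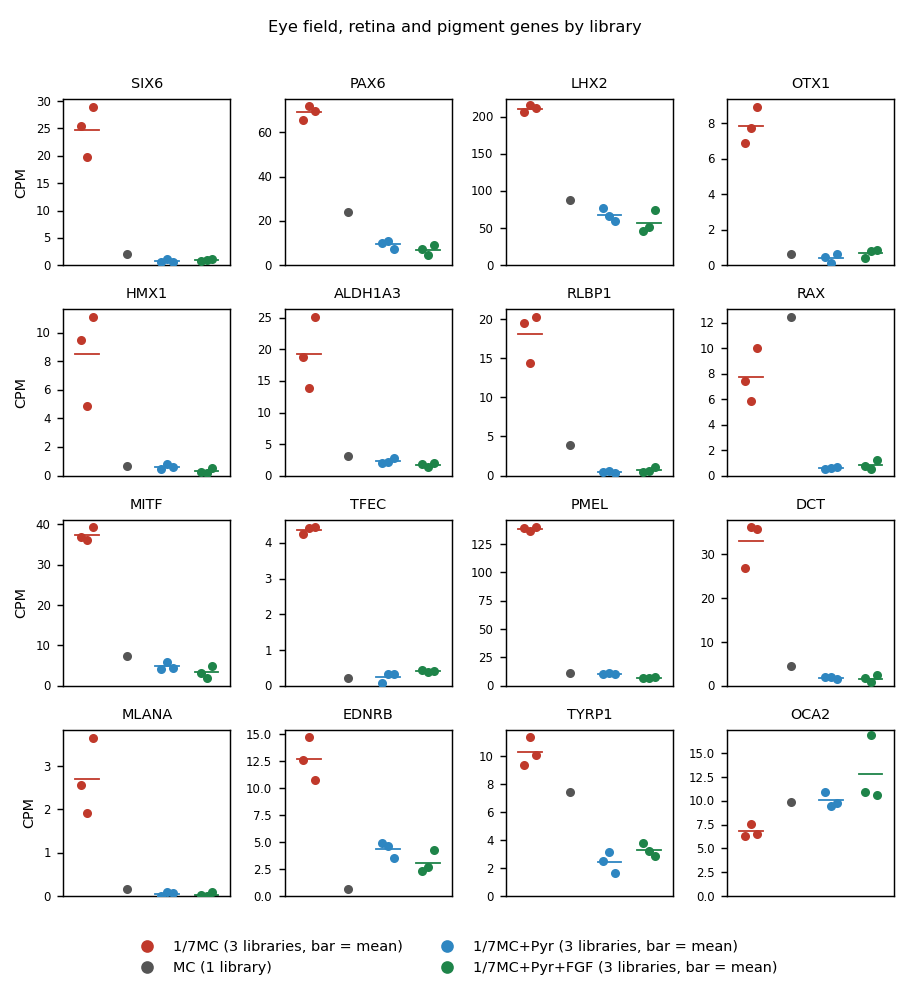
CPM (linear axes from 0) of 16 eye, retina and pigment genes in each library, with 1/7MC leftmost and horizontal bars at the mean of the groups with 3 libraries. For PMEL the 1/7MC libraries sit at 137 to 140.0 CPM and the 7 others at 6.47 to 11.2 CPM, whereas RAX is highest in MC and OCA2 lowest in 1/7MC.

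Many, but not all, factors that pattern the hindbrain, spinal cord and neural crest were high as well. Of 15 tested, 11 lay above and none below, 10 were called higher and 1 lower, and the median was 1.20. Neural crest factors went in both directions. The gene called lower was SOX10 (-1.81 ± 0.40), which overlapped, and FOXD3 (-0.33 ± 0.15) overlapped and was not called. EN1, EN2, HOXB1 and OLIG2 did not pass the filter. PAX5, a paired-box factor of the midbrain-hindbrain boundary, had 29, 37.7 and 27.3 CPM in 1/7MC, against 0.615 CPM in MC, 2.9, 2.73 and 3.11 CPM in 1/7MC+Pyr and 2.12, 2.76 and 2.83 CPM in 1/7MC+Pyr+FGF. MC was lowest and the supplemented libraries were alike, and the fold change was 4.24 ± 0.16 (adjusted p = 2.38e-09). PAX3, of the dorsal neural tube and neural crest, had 4.1 to 4.84 CPM in 1/7MC against 0.0574 to 0.454 CPM in the 7 others (4.16 ± 0.35 (adjusted p = 1.52e-06)). MSX2, a BMP-responsive homeobox factor, had 9.1 to 10.4 CPM in 1/7MC against 2.99 to 7.46 CPM in the 7 others (1.20 ± 0.12 (adjusted p = 6.94e-06)), and it was higher in 1/7MC+Pyr+FGF than in 1/7MC+Pyr, by 0.93 (adjusted p = 0.00398). SOX9, a factor of neural crest and cartilage, had 17.6 to 21.9 CPM in 1/7MC against 3.59 to 9.59 CPM in the 7 others (1.54 ± 0.16).

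TFAP2B, of neural crest, was near the detection limit, with 0.513 to 0.878 CPM in 1/7MC against 0 to 0.18 CPM in the 7 others. With a mean of at least 1 CPM required, 8 of the list's genes were left, and 6 of those were called higher. PAX2, of the optic stalk and midbrain-hindbrain boundary, was highest in MC: it had 7.7, 6.27 and 7.74 CPM in 1/7MC, against 21.5 CPM in MC, 3.7, 3.21 and 3.51 CPM in 1/7MC+Pyr and 2.85, 3.23 and 3.58 CPM in 1/7MC+Pyr+FGF and was not called (0.22 ± 0.13 (adjusted p = 0.228)). Without MC its fold change was 1.10 (adjusted p = 5.1e-05), and it lay above the others.

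Genes of mesoderm and heart included the gene with the widest gap of all called genes with a symbol. Of 11 tested, 7 lay above and none below, 6 were called higher and 1 lower, and the median was 0.95. T-box factors in the list went in both directions. The gene called lower was the T-box factor EOMES (-0.66 ± 0.20), which overlapped. TBX6 (-0.18) overlapped and was not called, and TBXT and TBX5 did not pass the filter. TBX20, needed for heart chamber growth and also present in the embryonic retina and hindbrain, had 15.5, 22.1 and 17.3 CPM in 1/7MC, against 0.252 CPM in MC, 0.419, 0.115 and 0.286 CPM in 1/7MC+Pyr and 0.138, 0.27 and 0.308 CPM in 1/7MC+Pyr+FGF. The gap between the lowest 1/7MC library and the highest other library was 5.03 on the log2 CPM scale, and the fold change was 6.18 ± 0.26 (adjusted p = 6.2e-09). TBX2, a repressor of the heart, eye and limb, had 13.5, 15 and 14 CPM in 1/7MC, against 0.279 CPM in MC, 0.908, 0.803 and 0.966 CPM in 1/7MC+Pyr and 2.09, 1.53 and 2.91 CPM in 1/7MC+Pyr+FGF. Among the other groups TBX2 was lowest in MC and was higher in 1/7MC+Pyr+FGF than in 1/7MC+Pyr, by 1.29 (adjusted p = 0.0109). TBX3, a close relative that is also listed among naive pluripotency genes, had 7.14 to 9.08 CPM in 1/7MC against 0.922 to 3.61 CPM in the 7 others (2.40 ± 0.18), and ISL1, of heart and motor neuron precursors, had 15.8 to 17.9 CPM in 1/7MC against 0.587 to 7.58 CPM in the 7 others (2.65 ± 0.19).

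GATA6, of primitive endoderm and heart, had 1.87 to 2.54 CPM in 1/7MC against 0.465 to 1.45 CPM in the 7 others and was called by a narrow margin (0.82 ± 0.27 (adjusted p = 0.036)). The call was lost when any 1 of the 3 1/7MC replicates was left out, with adjusted p up to 0.15. PDGFRA, a receptor of mesenchyme and primitive endoderm, had 5.27 to 6.04 CPM in 1/7MC against 1.2 to 2.18 CPM in the 7 others (1.91 ± 0.20). Of 12 endoderm and hypoblast genes, 3 lay above, namely PDGFRA, GATA6 and the chemokine receptor CXCR4 (0.89 ± 0.14), none lay below, and 7 were called higher, but 4 of 10 without MC. GATA3, a factor of trophectoderm and several later tissues, had 9.04 to 11.4 CPM in 1/7MC against 0.727 to 5.18 CPM in the 7 others (2.46 ± 0.24).

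Neural genes were mixed by region. Of 15 neural progenitor and neuron genes, 6 lay above and 1 below, 6 were called higher and 1 lower, and the median was 0.56. MAB21L1, needed for lens and retina growth, had 72.8, 70.8 and 77.6 CPM in 1/7MC, against 0.922 CPM in MC, 1.64, 1.86 and 1.36 CPM in 1/7MC+Pyr and 1.75, 1.17 and 2.85 CPM in 1/7MC+Pyr+FGF. It was the second widest gap of all called genes with a symbol, with a fold change of 5.69 ± 0.21 (adjusted p = 2.38e-09), and its relative MAB21L2, which acts in the eye and midbrain, had 82.7 to 97.9 CPM in 1/7MC against 9.89 to 32.5 CPM in the 7 others (2.33 ± 0.22). INA, a neuronal intermediate filament, was the member below, with 8.71 to 10.1 CPM in 1/7MC against 11.1 to 13.4 CPM in the 7 others (-0.37 ± 0.10 (adjusted p = 0.0144)), and it was not called without 1/7MC replicate 1 (adjusted p = 0.081) or replicate 2 (adjusted p = 0.051).

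Forebrain and hypothalamus genes went in both directions: of 16 tested, 3 lay above and 2 below, 3 were called higher and 4 lower, and the median was -0.20. LHX5, a factor of the anterior neural plate, had 7.43, 7.29 and 8.15 CPM in 1/7MC, against 61 CPM in MC, 22.8, 18.2 and 16.9 CPM in 1/7MC+Pyr and 20.2, 18.1 and 25 CPM in 1/7MC+Pyr+FGF. MC was highest and 1/7MC lowest, and the fold change was -1.94 ± 0.14 (adjusted p = 3.91e-07). HESX1, a repressor of the anterior neural plate and pituitary, had 12.9 to 18.4 CPM in 1/7MC against 21.4 to 48.3 CPM in the 7 others (-1.17 ± 0.19). FOXB1, of the hypothalamus and spinal cord, lay below with 9.62 to 11 CPM in 1/7MC against 23 to 50.8 CPM in the 7 others (-1.75 ± 0.11). DLX1, of the ventral forebrain and retina, lay above at low levels, with 1.5 to 2.03 CPM in 1/7MC against 0 to 0.14 CPM in the 7 others (5.02 ± 0.53). FEZF1, of the forebrain, had 3.92, 3.7 and 5.56 CPM in 1/7MC, against 55.6 CPM in MC, 4.22, 3.79 and 4.76 CPM in 1/7MC+Pyr and 2.51, 2.64 and 3.39 CPM in 1/7MC+Pyr+FGF, so 1/7MC overlapped 1/7MC+Pyr and lay above 1/7MC+Pyr+FGF, while MC was far above all, and the mean fold change was -0.99 ± 0.16. Without MC it was 0.33 and not called (adjusted p = 0.181).

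Neuropeptide genes also split. Of 14 tested, 4 lay above and 3 below, 4 were called higher and 4 lower. GRP, gastrin-releasing peptide, had 40.5, 25.9 and 38.3 CPM in 1/7MC, against 1.37 CPM in MC, 0.628, 0.66 and 0.25 CPM in 1/7MC+Pyr and 0.667, 0.24 and 0.755 CPM in 1/7MC+Pyr+FGF, with a fold change of 5.55 ± 0.26 (adjusted p = 1.97e-08). HCRT, the precursor of the orexins of the lateral hypothalamus, had 22.4, 21.5 and 17.4 CPM in 1/7MC, against 1.7 CPM in MC, 0.943, 1.09 and 1.11 CPM in 1/7MC+Pyr and 0.966, 1.11 and 1.85 CPM in 1/7MC+Pyr+FGF, with a fold change of 3.94 ± 0.18 (adjusted p = 1.97e-08). Both were low in all 7 others. NTS, neurotensin, lay above, with 4.79 to 5.02 CPM in 1/7MC against 0.112 to 3.64 CPM in the 7 others, but its 7 others differed: log2 fold changes were 5.41 against MC, 1.79 against 1/7MC+Pyr and 0.74 against 1/7MC+Pyr+FGF. TAC3, the precursor of neurokinin B, lay below with 0.144 to 0.506 CPM in 1/7MC against 1.12 to 2.09 CPM in the 7 others (-2.09 ± 0.34), as did galanin, GAL, with 0.605 to 1.05 CPM in 1/7MC against 1.29 to 4.82 CPM in the 7 others (-1.46 ± 0.26), and PDYN, the dynorphin precursor, with 14.7 to 17.4 CPM in 1/7MC against 17.5 to 32.9 CPM in the 7 others (-0.65 ± 0.13). PDYN no longer lay below under scaling by total counts.

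The genes with the widest gaps outside these lists were of varied function. MT3, a metallothionein of the brain, had 6.35, 3 and 8.84 CPM in 1/7MC, against 0.224 CPM in MC, 0.0349, 0.0287 and 0.143 CPM in 1/7MC+Pyr and 0.069, 0.03 and 0.0839 CPM in 1/7MC+Pyr+FGF, with a fold change of 5.90 ± 0.42 (adjusted p = 3.5e-07). DAPL1, a gene of the retinal pigment epithelium and other epithelia, had 2.19 to 2.71 CPM in 1/7MC against 0 to 0.168 CPM in the 7 others (5.63 ± 0.42). SPARCL1, a matrix protein of glia and vessels, had 13.8 to 17.6 CPM in 1/7MC against 0.447 to 1.38 CPM in the 7 others (4.41 ± 0.22). A pair of low genes stood among the largest folds: CXCL13, a B-cell chemokine, had 0.439, 0.054 and 0.173 CPM in 1/7MC and 0 counts in each of the 7 others, and CLEC1A, a lectin of endothelium, had 0.54 to 1.67 CPM in 1/7MC against 0 to 0.105 CPM in the 7 others. Both folds rest on values at or near 0 in the 7 others. CXCL13 also had only a handful of counts per 1/7MC library and was not called by DESeq2 (adjusted p = 0.23).

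**Figure D3:**
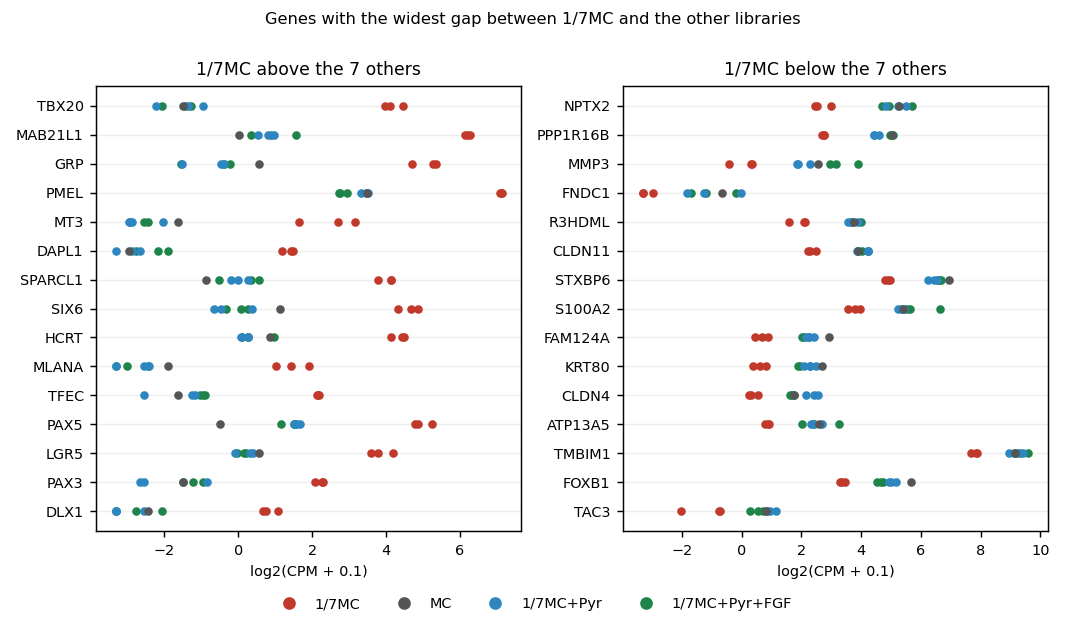
log2(CPM + 0.1) in each library for the 15 called genes above (left panel) and the 15 below (right panel) with the widest gap between the nearest 1/7MC library and the nearest other library, coloured by group. TBX20 has the widest gap above, 5.03 on the log2 CPM scale with a prior count of 2, and NPTX2 the widest below, 1.74.

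WNT response genes went in both directions. Of 18 WNT response genes, 6 lay above and 2 below, 8 were called higher and 2 lower, and the median was 0.36. LGR5, a receptor for R-spondins and a WNT target, had 11.9, 18.1 and 13.6 CPM in 1/7MC, against 1.37 CPM in MC, 1.15, 0.832 and 1.22 CPM in 1/7MC+Pyr and 1.01, 1.05 and 0.867 CPM in 1/7MC+Pyr+FGF. All 7 others stayed between 0.832 and 1.37 CPM, and the fold change was 3.69 ± 0.18 (adjusted p = 1.99e-08). DKK1, a secreted inhibitor and target of WNT, had 15.6, 19.5 and 18.8 CPM in 1/7MC, against 1.73 CPM in MC, 3.7, 3.24 and 2.83 CPM in 1/7MC+Pyr and 8.7, 6.5 and 8.84 CPM in 1/7MC+Pyr+FGF, with a fold change of 2.33 ± 0.14 (adjusted p = 1.09e-07). DKK1 was higher in 1/7MC+Pyr+FGF than in 1/7MC+Pyr, by 1.30 (adjusted p = 0.00123), so that group lay nearest to 1/7MC. AXIN2, a feedback inhibitor and target of WNT, had 10.7 to 11.2 CPM in 1/7MC against 6.22 to 8.7 CPM in the 7 others (0.64 ± 0.12 (adjusted p = 0.00108)). SFRP2, a secreted WNT modulator, had 619 to 721 CPM in 1/7MC against 159 to 259 CPM in the 7 others (1.77 ± 0.10), whereas its relative SFRP1 was the reverse, with 197 to 255 CPM in 1/7MC against 469 to 615 CPM in the 7 others (-1.17 ± 0.12). FZD7, a WNT receptor of stem cells, lay below with 142 to 198 CPM in 1/7MC against 235 to 430.1 CPM in the 7 others (-1.07 ± 0.20).

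Of 18 BMP and ID genes, 8 lay above and none below, 14 were called higher and 1 lower, and the median was 0.87. With the 7 others pooled, 8 were called higher. ID2, an inhibitor of helix-loop-helix factors and a direct BMP target, had 71.6 to 86.9 CPM in 1/7MC against 26.7 to 42.8 CPM in the 7 others (1.35 ± 0.14 (adjusted p = 9.86e-06)), ID3 had 182 to 221 CPM in 1/7MC against 96 to 165 CPM in the 7 others (0.61 ± 0.12) and ID4 had 66.6 to 72.5 CPM in 1/7MC against 27.4 to 52 CPM in the 7 others (0.92 ± 0.16). ID1 did not separate, because 1/7MC+Pyr+FGF overlapped it: it had 294, 229 and 299 CPM in 1/7MC, against 148 CPM in MC, 143, 178 and 151 CPM in 1/7MC+Pyr and 259, 177 and 263 CPM in 1/7MC+Pyr+FGF. BMPR1B, a type I receptor, had 12.6 to 16.6 CPM in 1/7MC against 3.98 to 6.26 CPM in the 7 others (1.55 ± 0.16). BMP4, a ligand, overlapped with 1/7MC+Pyr+FGF and had 122 to 140.3 CPM in 1/7MC against 36.8 to 133 CPM in the 7 others. GREM1, a BMP antagonist, had 2.84 to 4.13 CPM in 1/7MC against 0.751 to 2.52 CPM in the 7 others (1.13 ± 0.21), and it overlapped once MC replicates 2 and 3 were added.

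Of 20 TGF-beta response genes, 3 lay above and 1 below, and 11 were called higher and 1 lower. Without MC, 6 were called higher and 4 lower. BAMBI, a pseudoreceptor that dampens TGF-beta and BMP signals, had 56.9, 59.5 and 67.3 CPM in 1/7MC, against 2.29 CPM in MC, 9.39, 11.3 and 10.2 CPM in 1/7MC+Pyr and 19, 16.9 and 27.5 CPM in 1/7MC+Pyr+FGF. MC was lowest, 1/7MC+Pyr+FGF was nearest to 1/7MC, and the fold change was 2.95 ± 0.15 (adjusted p = 3.4e-08). CCN2, a matricellular target, had 202 to 279 CPM in 1/7MC against 86.3 to 178 CPM in the 7 others (0.87 ± 0.12). SMAD6, an inhibitory SMAD, had 25.3 to 32.1 CPM in 1/7MC against 10.8 to 21.9 CPM in the 7 others (0.85 ± 0.13).

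FGF and ERK response genes did not move as one. Of 24 tested, 8 lay above and 2 below, 11 were called higher and 4 lower, and the median was 0.25. PHLDA1 had 40.0 to 43.2 CPM in 1/7MC against 9.95 to 29.4 CPM in the 7 others (1.10 ± 0.09) and SPRY1, a feedback inhibitor of FGF signalling, had 76.8 to 95.7 CPM in 1/7MC against 35 to 57 CPM in the 7 others (0.92 ± 0.11). MYC, a target of many growth factors, had 30.7 to 32 CPM in 1/7MC against 10.8 to 27.8 CPM in the 7 others (0.87 ± 0.12). DUSP6, an ERK phosphatase, lay above by a narrow gap, with 185 to 205 CPM in 1/7MC against 144 to 171 CPM in the 7 others (0.31 ± 0.09 (adjusted p = 0.0157)), and was not called without 1/7MC replicate 2 (adjusted p = 0.077) or replicate 3 (adjusted p = 0.051). SPRY4 overlapped and was not called (-0.10 ± 0.18 (adjusted p = 0.728)). DUSP5 lay below, with 2.1 to 2.86 CPM in 1/7MC against 4.19 to 7.63 CPM in the 7 others (-1.16 ± 0.16). Of 15 FGF ligands and receptors, 3 lay above and 1 below. FGF10, a ligand of mesenchyme, had 6.89 to 9.45 CPM in 1/7MC against 1.96 to 5.01 CPM in the 7 others (1.31 ± 0.15) but was not called when MC replicates 2 and 3 were added (adjusted p = 0.13), and FGF2, basic FGF itself, had 11.3 CPM in each 1/7MC library against 6.84 to 10.3 CPM in the 7 others (0.40 ± 0.14 (adjusted p = 0.0399)), a call lost in several settings with adjusted p up to 0.15.

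Of 17 DNA methylation and imprinting genes, 5 lay above and 2 below, and 7 were called higher and 3 lower. IGF2, a fetal growth factor expressed from the paternal allele, had 541, 647 and 495 CPM in 1/7MC, against 41.5 CPM in MC, 244, 168 and 186 CPM in 1/7MC+Pyr and 86.1, 106 and 141 CPM in 1/7MC+Pyr+FGF. MC was lowest and 1/7MC+Pyr nearest, and the fold change was 2.53 ± 0.16 (adjusted p = 1.5e-07). PEG10, a paternally expressed gene derived from a retrotransposon, had 545, 636 and 488 CPM in 1/7MC, against 271 CPM in MC, 126, 152 and 126 CPM in 1/7MC+Pyr and 163, 189 and 229 CPM in 1/7MC+Pyr+FGF, with a fold change of 1.54 ± 0.12 (adjusted p = 9.6e-07). For PEG10 MC was the nearest group. MEST, also paternally expressed, had 429 to 481 CPM in 1/7MC against 159 to 364 CPM in the 7 others (0.89 ± 0.14), and CDKN1C, a maternally expressed cell cycle inhibitor, had 45 to 56.3 CPM in 1/7MC against 12 to 37.4 CPM in the 7 others (1.25 ± 0.18). SNRPN lay below by a small step, with 85.7 to 95.4 CPM in 1/7MC against 101 to 122 CPM in the 7 others (-0.27 ± 0.09 (adjusted p = 0.0318)), and was not called in several settings. The imprinted genes GRB10 (0.14), NNAT (-0.01), DLK1 (-0.07) and IGF2R (-0.37) overlapped and were not called, and PLAGL1 (0.34, adjusted p = 0.0198) overlapped and was called higher.

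Fibroblast and matrix genes separated less clearly than these. Of 31 tested, 8 lay above and none below, and 19 were called higher and 1 lower, with a median of 0.61. That median depended on MC: against MC 26 were called higher, but against 1/7MC+Pyr 7 were called higher and 9 lower, and against 1/7MC+Pyr+FGF 11 higher and 3 lower. Without MC, 9 were called higher and 5 lower. POSTN, a matrix protein of mesenchyme, had 460.4, 609 and 419.9 CPM in 1/7MC, against 17.3 CPM in MC, 362, 329.6 and 366 CPM in 1/7MC+Pyr and 229, 199 and 233 CPM in 1/7MC+Pyr+FGF. All 3 values of 1/7MC were above the others, and the fold change was 2.17 ± 0.12 (adjusted p = 4.88e-08). Its log2 fold changes were 4.84 against MC, 0.49 against 1/7MC+Pyr and 1.17 against 1/7MC+Pyr+FGF, and the mean was 0.82 without MC. COL1A2, a chain of collagen I, had 2932, 4191 and 2652 CPM in 1/7MC, against 272 CPM in MC, 6119.5, 3586 and 4984 CPM in 1/7MC+Pyr and 2182, 2876 and 3010.3 CPM in 1/7MC+Pyr+FGF, so it overlapped. Its mean fold change of 1.09 ± 0.18 (adjusted p = 0.000435) turned to -0.17 without MC and to -0.01 with the 7 others pooled. COL1A1, the other chain, was not called (0.46 ± 0.24 (adjusted p = 0.165)).

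Some mesenchymal genes did separate in 1/7MC from each group. FAP, a protease of activated fibroblasts, had 4.86, 5.08 and 3.54 CPM in 1/7MC, against 0.14 CPM in MC, 1.08, 0.631 and 0.501 CPM in 1/7MC+Pyr and 0.368, 0.419 and 0.727 CPM in 1/7MC+Pyr+FGF, with a fold change of 3.58 ± 0.30 (adjusted p = 1.37e-06). BGN, a matrix proteoglycan, had 269 to 377 CPM in 1/7MC against 39 to 147 CPM in the 7 others (1.96 ± 0.15), and THY1, a surface protein of fibroblasts and neurons, had 26.1 to 31.2 CPM in 1/7MC against 3.27 to 23.5 CPM in the 7 others (1.57 ± 0.16). VIM, an intermediate filament of mesenchyme, overlapped with 4877 to 5276 CPM in 1/7MC against 2247 to 4922 CPM in the 7 others. Of 13 mesenchymal transition factors, 4 lay above and none below, and 10 were called higher, but 5 without MC. PRRX1 had 25.9 to 30.5 CPM in 1/7MC against 4.02 to 16.4 CPM in the 7 others (1.91 ± 0.13), TWIST1 had 18.7 to 20.1 CPM in 1/7MC against 3.21 to 11.5 CPM in the 7 others (1.68 ± 0.11) and FOXC2 had 8.37 to 9.32 CPM in 1/7MC against 0.81 to 5.1 CPM in the 7 others (1.91 ± 0.20). Of 11 endothelial and blood markers, 2 lay above and 3 below. CD34 (1.83 ± 0.32) and PECAM1 (2.19 ± 0.51) lay above at under 3 CPM, and KDR (-1.42 ± 0.25), TEK (-0.80 ± 0.13) and VWF (-1.60 ± 0.25) lay below.

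Interferon response genes were high in 1/7MC and 1/7MC+Pyr alike. Of 25 tested, 5 lay above and 1 below, and 17 were called higher and 1 lower. ISG15, a ubiquitin-like modifier, had 12.2, 12.8 and 16.4 CPM in 1/7MC, against 0.643 CPM in MC, 11.3, 10.1 and 9.12 CPM in 1/7MC+Pyr and 2.92, 1.92 and 4.34 CPM in 1/7MC+Pyr+FGF. The values of 1/7MC and 1/7MC+Pyr were close, MC and 1/7MC+Pyr+FGF were low, and the mean fold change was 2.34 ± 0.21 (adjusted p = 2.76e-06). Against 1/7MC+Pyr alone only 1 of the 25 was called higher and 4 lower, and without MC 11 of 22 were called higher. With the 7 others pooled 1 was called higher. IFI27 (6.95 to 10.2 CPM in 1/7MC against 0.449 to 6.81 CPM in the 7 others) and OAS1Y (21.4 to 25 CPM in 1/7MC against 1.51 to 20.3 CPM in the 7 others) showed the same order, and OAS1Y shares sequence with its copies, so its counts are uncertain. IRF1, an interferon-induced factor, was below, with 6.32 to 8.64 CPM in 1/7MC against 11.3 to 15.2 CPM in the 7 others (-0.84 ± 0.13).

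The pluripotency network stood lower in 1/7MC. Of 15 shared pluripotency genes, none lay above and 8 below, 11 were called lower, and the median was -0.59. The summed level was 2996 to 3268 CPM in 1/7MC, against 4987 CPM in MC, 5063 to 5289 CPM in 1/7MC+Pyr and 4007 to 4654 CPM in 1/7MC+Pyr+FGF. PRDM14, a repressor that protects pluripotency, had 59.3, 58.1 and 62.6 CPM in 1/7MC, against 89.4 CPM in MC, 119, 104 and 117 CPM in 1/7MC+Pyr and 127, 145 and 124 CPM in 1/7MC+Pyr+FGF. MC was the nearest group, and the fold change was -0.88 ± 0.09 (adjusted p = 8.81e-06). SALL4, a zinc finger factor of stem cells, had 244 to 277 CPM in 1/7MC against 323 to 495 CPM in the 7 others (-0.72 ± 0.10 (adjusted p = 0.000158)), LIN28A fell by 0.59 on the log2 scale, and POU5F1 by 0.54.

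DNMT3B, the de novo methyltransferase of the epiblast, had 1104, 1037 and 1041 CPM in 1/7MC, against 1713 CPM in MC, 1829, 1867 and 1977 CPM in 1/7MC+Pyr and 1191, 1419 and 1198 CPM in 1/7MC+Pyr+FGF. 1/7MC+Pyr+FGF lay nearest to 1/7MC and below 1/7MC+Pyr, by -0.58 (adjusted p = 0.0109), and DNMT3B was not called lower in 1/7MC against it (-0.26, adjusted p = 0.0902). JARID2, a Polycomb partner, had 307 to 361 CPM in 1/7MC against 425 to 726 CPM in the 7 others (-0.88 ± 0.15), and TERT, the telomerase subunit, had 2.94 to 3.63 CPM in 1/7MC against 3.7 to 7.99 CPM in the 7 others (-0.74 ± 0.20). NANOG did not lie below, because MC was lowest: it had 43.4, 38.2 and 40.4 CPM in 1/7MC, against 34 CPM in MC, 63.1, 81 and 76.3 CPM in 1/7MC+Pyr and 111, 79.4 and 77 CPM in 1/7MC+Pyr+FGF, with a fold change of -0.58 ± 0.13 (adjusted p = 0.00428). OTX2, a factor of the primed state and of forebrain, lay below by a small step, with 139 to 152 CPM in 1/7MC against 158 to 192 CPM in the 7 others, and just missed the threshold (-0.25 ± 0.09 (adjusted p = 0.0514)). Of 14 primed and formative genes, 4 lay above and 3 below. Of 12 naive state genes, 5 lay above and none below, among them TBX3 and STAT3 (73.2 to 86.9 CPM in 1/7MC against 27.6 to 54.1 CPM in the 7 others), the transducer of LIF signals, with a fold change of 1.05 ± 0.09 (adjusted p = 2.45e-06). GBX2 (1.03) lay above too but was not called. The rest of the list tested overlapped and was not called: NODAL (0.60), KLF2 (0.51), ESRRB (0.24), KLF4 (0.15), KLF5 (0.06), NR5A2 (-0.08) and TFCP2L1 (-0.41). KLF17, DPPA3 and FGF4 did not pass the filter.

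Epithelial genes were lower for a part of the list, and the counts depended on MC. Of 23 junction genes, 1 lay above and 5 below, and 14 were called lower and 1 higher, against 6 lower and 4 higher without MC. The gene above was SPINT2 (0.47 ± 0.10). OCLN, a tight junction protein, had 9.08, 9.29 and 8.58 CPM in 1/7MC, against 26.2 CPM in MC, 17, 15.5 and 17 CPM in 1/7MC+Pyr and 16.4, 16.7 and 15.8 CPM in 1/7MC+Pyr+FGF, with a fold change of -1.09 ± 0.10 (adjusted p = 2.46e-06). CLDN4, a claudin, had 1.35, 1.08 and 1.15 CPM in 1/7MC, against 3.27 CPM in MC, 5.31, 4.39 and 5.8 CPM in 1/7MC+Pyr and 2.99, 3.12 and 3.27 CPM in 1/7MC+Pyr+FGF, with a fold change of -1.65 ± 0.18 (adjusted p = 1.25e-05). Both lay below every other library. CLDN6, a claudin of stem cells, had 102 to 111 CPM in 1/7MC against 127 to 261 CPM in the 7 others (-0.78 ± 0.11), and the desmosomal cadherin DSG2 had 64.3 to 88.9 CPM in 1/7MC against 112 to 164 CPM in the 7 others (-0.88 ± 0.13). CDH1, the adherens junction cadherin, overlapped with 1/7MC+Pyr+FGF: it had 115, 148 and 101 CPM in 1/7MC, against 371 CPM in MC, 259, 188 and 228 CPM in 1/7MC+Pyr and 101, 142 and 99 CPM in 1/7MC+Pyr+FGF, with a fold change of -0.80 ± 0.16 (adjusted p = 0.00148). EPCAM, an adhesion molecule, had 19, 16.3 and 17.9 CPM in 1/7MC, against 72.8 CPM in MC, 21, 20.2 and 22 CPM in 1/7MC+Pyr and 10.01, 10.8 and 8.59 CPM in 1/7MC+Pyr+FGF, so 1/7MC lay between the groups. Its fold change of -0.48 ± 0.10 (adjusted p = 0.00324) became 0.29 without MC (adjusted p = 0.0485).

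Several keratins and other epithelial genes were lower too, but the keratin KRT19 overlapped and was not called (-0.0036 ± 0.12). KRT8, a keratin of simple epithelia and trophectoderm, had 495, 408 and 525 CPM in 1/7MC, against 951 CPM in MC, 784, 865 and 773 CPM in 1/7MC+Pyr and 1306, 1127 and 1208 CPM in 1/7MC+Pyr+FGF, with a fold change of -1.04 ± 0.11 (adjusted p = 8.79e-06). Its partner KRT18 had 207 to 272 CPM in 1/7MC against 341 to 788 CPM in the 7 others (-0.94 ± 0.12), and both were higher in 1/7MC+Pyr+FGF than in 1/7MC+Pyr, KRT18 by 0.88 (adjusted p = 0.00327). KRT80 had 1.22 to 1.65 CPM in 1/7MC against 3.64 to 6.37 CPM in the 7 others (-1.79 ± 0.18), KRT7 had 4.37 to 5.13 CPM in 1/7MC against 6.2 to 22.8 CPM in the 7 others (-1.24 ± 0.15) and S100A2, a calcium-binding protein of epithelia, had 11.8 to 15.6 CPM in 1/7MC against 37.6 to 99.4 CPM in the 7 others (-1.81 ± 0.22). Keratin genes have close copies, so the counts of KRT8 and KRT18 may be shared with them. Of 10 trophectoderm genes, 2 lay above, GATA3 and TFAP2A (1.53 ± 0.32), and 4 below.

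**Figure D4:**
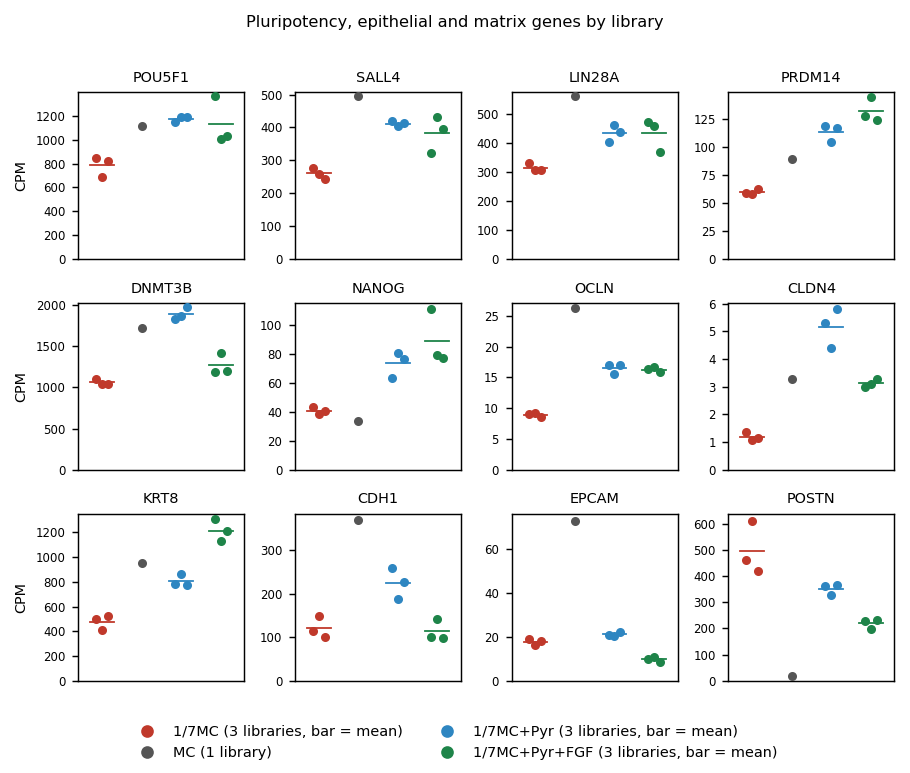
CPM (linear axes from 0) of 12 pluripotency, epithelial and matrix genes in each library, with 1/7MC leftmost and horizontal bars at the mean of the groups with 3 libraries. PRDM14 is at 58.1 to 62.6 CPM in 1/7MC and at 89.4 to 145 CPM in the 7 others, NANOG and EPCAM do not separate, and POSTN is lowest in MC.

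Of the widest gaps below, several genes belonged to none of these groups. NPTX2, a secreted pentraxin of synapses, had 5.67, 7.8 and 5.41 CPM in 1/7MC, against 38.5 CPM in MC, 44.8, 28.3 and 37.6 CPM in 1/7MC+Pyr and 26.1, 51.9 and 30.5 CPM in 1/7MC+Pyr+FGF, with a fold change of -2.56 ± 0.24 (adjusted p = 3.69e-06). PPP1R16B, a regulator of protein phosphatase 1, had 6.72, 6.67 and 6.42 CPM in 1/7MC, against 32.4 CPM in MC, 21.5, 21.5 and 24 CPM in 1/7MC+Pyr and 33.5, 33 and 30.8 CPM in 1/7MC+Pyr+FGF, with a fold change of -2.12 ± 0.10 (adjusted p = 1.99e-08). STXBP6, a regulator of SNARE complexes, had 28.1 to 30.9 CPM in 1/7MC against 76.1 to 124 CPM in the 7 others (-1.78 ± 0.10), and CLDN11, a claudin of oligodendrocytes and Sertoli cells, had 4.61 to 5.47 CPM in 1/7MC against 14.5 to 18.9 CPM in the 7 others (-1.71 ± 0.14). MMP3, a matrix protease, had 0.648 to 1.18 CPM in 1/7MC against 3.53 to 14.6 CPM in the 7 others and was higher in 1/7MC+Pyr+FGF than in 1/7MC+Pyr, by 1.39 (adjusted p = 0.00919). TMBIM1, a membrane protein of the BAX inhibitor family, had 206 to 238 CPM in 1/7MC against 499 to 778 CPM in the 7 others (-1.43 ± 0.13), and FAM124A had 1.27 to 1.76 CPM in 1/7MC against 3.93 to 7.55 CPM in the 7 others (-1.82 ± 0.17). FNDC1, HOXC4, ASCL2, MIR1434, AREG and KRT6A had the largest falls by fold but at 0.101 CPM or less in each 1/7MC library. AREG and MIR1434 were not called when any 1 of the 1/7MC replicates was left out. Adjusted p reached 0.11 for AREG and 0.12 for MIR1434, and MIR1434 lost its call in further settings.

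Cholesterol and fatty acid synthesis was the list with the greatest share of members below. Of 26 genes tested, 23 lay below and none above, 25 were called lower, and the median was -0.58. The summed level was 7195 to 8086 CPM in 1/7MC, against 10996 CPM in MC, 10546 to 11831 CPM in 1/7MC+Pyr and 12040 to 15912 CPM in 1/7MC+Pyr+FGF. HMGCS1, which starts the mevalonate pathway, had 527, 508 and 544 CPM in 1/7MC, against 811 CPM in MC, 712, 927 and 905 CPM in 1/7MC+Pyr and 1602, 1549 and 1243 CPM in 1/7MC+Pyr+FGF. 1/7MC+Pyr+FGF was highest, and the fold change was -0.93 ± 0.12 (adjusted p = 5.3e-05). SQLE, which makes squalene epoxide, had 140.2 to 158 CPM in 1/7MC against 214 to 373 CPM in the 7 others (-0.76 ± 0.11), and DHCR7, the last step of the Kandutsch-Russell branch, had 216 to 269.6 CPM in 1/7MC against 353 to 695 CPM in the 7 others (-0.98 ± 0.15).

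ACSS2, which makes acetyl-CoA from acetate, had 50.9, 46.9 and 52.3 CPM in 1/7MC, against 71.5 CPM in MC, 88.4, 89.1 and 93 CPM in 1/7MC+Pyr and 177, 190.4 and 144 CPM in 1/7MC+Pyr+FGF, with the largest fold change of the list, -1.04 ± 0.10 (adjusted p = 5.25e-06). INSIG1, the sterol sensor that retains SREBP, had 85.6 to 103 CPM in 1/7MC against 115 to 239 CPM in the 7 others (-0.63 ± 0.13), and FASN, fatty acid synthase, had 1482 to 1642 CPM in 1/7MC against 1686 to 2648 CPM in the 7 others (-0.55 ± 0.14). SREBF2, the transcription factor of this pathway, overlapped, with 366 to 455 CPM in 1/7MC against 419.9 to 701 CPM in the 7 others, and was called (-0.58 ± 0.16 (adjusted p = 0.0136)), whereas SREBF1 overlapped and was not called (-0.14 ± 0.15 (adjusted p = 0.507)). The list's median log2 fold change was -0.45 against MC, -0.51 against 1/7MC+Pyr and -0.89 against 1/7MC+Pyr+FGF. Against 1/7MC+Pyr+FGF, 24 of 26 were called lower. MC has 1 library, so calls against it are not compared with calls against the other groups. Of the 26, 9 were also called higher in 1/7MC+Pyr+FGF than in 1/7MC+Pyr. Whether the medians differ was not tested.

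**Figure D5:**
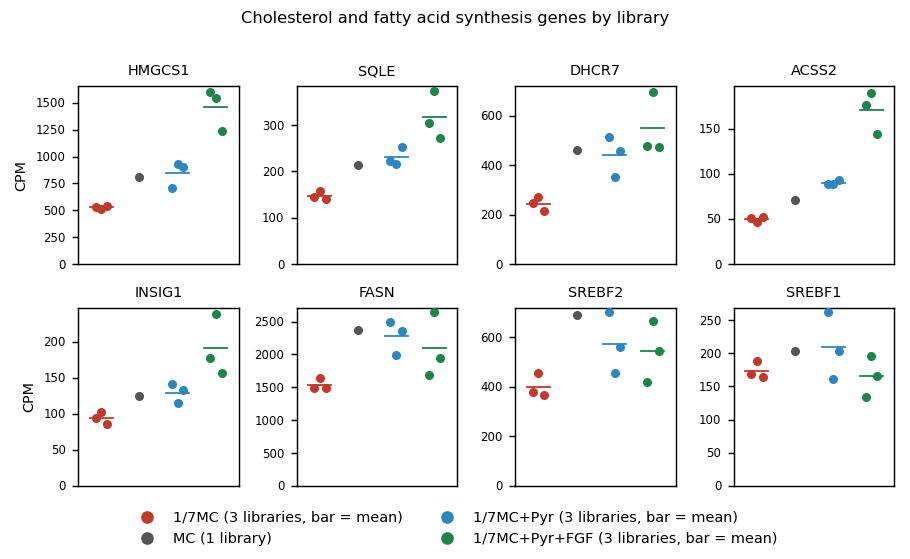
CPM (linear axes from 0) of 8 genes of cholesterol and fatty acid synthesis in each library, with 1/7MC leftmost and horizontal bars at the mean of the groups with 3 libraries. ACSS2 is at 46.9 to 52.3 CPM in 1/7MC and at 71.5 to 190.4 CPM in the 7 others, and SREBF1 and SREBF2 do not separate.

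Of 23 glycolysis genes, 5 lay below and none above, 9 were called lower, and the median was -0.21, but 5 were called lower without MC. Against MC 12 were called lower, while against 1/7MC+Pyr 4 were lower and 2 higher, and likewise against 1/7MC+Pyr+FGF 4 were lower and 2 higher. SLC16A1, a monocarboxylate transporter of lactate and pyruvate, had 207, 234 and 202 CPM in 1/7MC, against 308 CPM in MC, 328, 326 and 362 CPM in 1/7MC+Pyr and 355, 423 and 331 CPM in 1/7MC+Pyr+FGF, with a fold change of -0.65 ± 0.10 (adjusted p = 0.000307). PFKP, a phosphofructokinase, had 127 to 145 CPM in 1/7MC against 180.2 to 231 CPM in the 7 others (-0.53 ± 0.09), HK1, a hexokinase, had 216 to 237 CPM in 1/7MC against 271 to 359 CPM in the 7 others (-0.46 ± 0.09) and ENO1, an enolase, had 1349 to 1615 CPM in 1/7MC against 1722 to 2109.7 CPM in the 7 others (-0.35 ± 0.09). LDHA, lactate dehydrogenase A, did not separate: it had 165, 153 and 189 CPM in 1/7MC, against 374 CPM in MC, 87.1, 112 and 102 CPM in 1/7MC+Pyr and 119.7, 87.6 and 125 CPM in 1/7MC+Pyr+FGF. MC was highest and the supplemented libraries lowest, the fold change of 0.07 was not called, and without MC it was 0.67 (adjusted p = 0.0012).

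Genes that govern pyruvate entry to mitochondria were mixed. Of 26 tested, 3 lay above and 2 below. PDK4, a kinase that shuts off pyruvate dehydrogenase, had 1.18, 0.729 and 1.96 CPM in 1/7MC, against 0.112 CPM in MC, 0.175, 0.0861 and 0.0715 CPM in 1/7MC+Pyr and 0.138, 0.12 and 0.224 CPM in 1/7MC+Pyr+FGF, with a fold change of 3.32 ± 0.43 (adjusted p = 6.04e-05), at low abundance. MPC1, part of the carrier that brings pyruvate into mitochondria, had 36.1, 35.1 and 39.6 CPM in 1/7MC, against 22.1 CPM in MC, 19.7, 25.7 and 22.3 CPM in 1/7MC+Pyr and 30.2, 25.6 and 29.9 CPM in 1/7MC+Pyr+FGF, with a fold change of 0.61 ± 0.11 (adjusted p = 0.00065). PDK1, a relative of PDK4, behaved like LDHA: it had 15.6, 14.7 and 18.3 CPM in 1/7MC, against 23 CPM in MC, 8.41, 10.6 and 9.91 CPM in 1/7MC+Pyr and 10.7, 9.62 and 12.1 CPM in 1/7MC+Pyr+FGF, so MC was highest, and it was called only without MC (0.65, adjusted p = 0.0013). Of 21 tricarboxylic acid cycle genes, 2 lay below and none above. Of 13 mitochondrially encoded genes, 2 lay below, ND2 (1138 to 1502 CPM in 1/7MC against 1789 to 2105 CPM in the 7 others, -0.55 ± 0.11) and ND1 (-0.46 ± 0.11), and 9 did so without 1/7MC replicate 2, so this count rests on 1 library.

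Stress and growth genes moved in both directions. Of 26 hypoxia genes, 2 lay below (7.69%, against 8.95% of all genes) and none above. In that list 2 were called higher and 4 lower, and the median was -0.03. BNIP3 (0.92 ± 0.30) and LOX (0.41 ± 0.14) were called higher, and HK2 (-0.63 ± 0.11) and SLC2A3 (-0.40 ± 0.11) lower, but all 4 overlapped. The 2 below were EGLN3 and NDRG1. EGLN3, a prolyl hydroxylase of HIF, had 110.3, 105 and 110.4 CPM in 1/7MC, against 188 CPM in MC, 214, 224 and 218 CPM in 1/7MC+Pyr and 286, 267 and 298 CPM in 1/7MC+Pyr+FGF, with a fold change of -1.06 ± 0.08 (adjusted p = 8.11e-07). NDRG1, a HIF target, had 37.5 to 40.5 CPM in 1/7MC against 60.7 to 72.8 CPM in the 7 others (-0.74 ± 0.08). SLC2A1, the glucose transporter, overlapped and was not called (-0.17 ± 0.14 (adjusted p = 0.388)). Of 19 immediate early and heat shock genes, 3 lay above and 3 below. HSPA1A, an inducible heat shock protein, had 254 to 275 CPM in 1/7MC against 522 to 699 CPM in the 7 others (-1.19 ± 0.09), and ATF3, a stress-induced factor, had 6.04 to 8.75 CPM in 1/7MC against 10.3 to 25.9 CPM in the 7 others (-1.17 ± 0.15). FOS, an immediate early gene, had 26.7, 22.3 and 26.7 CPM in 1/7MC, against 154 CPM in MC, 12.5, 13.6 and 14.8 CPM in 1/7MC+Pyr and 9, 9.29 and 14.1 CPM in 1/7MC+Pyr+FGF, so MC was highest, and its fold change of -0.16 became 1.05 without MC (adjusted p = 9.2e-05). JUNB, another immediate early gene, lay above, with 55.9 to 63.9 CPM in 1/7MC against 17.3 to 43.2 CPM in the 7 others (1.13 ± 0.14). HMOX1, haem oxygenase, lay below with 17.1 to 18.8 CPM in 1/7MC against 24.1 to 34 CPM in the 7 others (-0.76 ± 0.11), one of 5 of 19 oxidative stress genes that did.

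Of 27 serine and amino acid stress genes, 2 lay above and 5 below, and 13 were called lower, 4 without 1/7MC replicate 1. PSAT1, an enzyme of serine synthesis, lay above and had 52.4, 43.2 and 53.1 CPM in 1/7MC, against 22.7 CPM in MC, 19, 24.9 and 20.2 CPM in 1/7MC+Pyr and 41.1, 34.4 and 39.6 CPM in 1/7MC+Pyr+FGF, with a fold change of 0.90 ± 0.11 (adjusted p = 4.44e-05). NUPR1, a stress-induced nuclear protein, was the other gene above, with 2.4 to 2.68 CPM in 1/7MC against 0.307 to 1.86 CPM in the 7 others (1.68 ± 0.25), and its fold change was 0.99 without MC. PHGDH, the first enzyme of serine synthesis, overlapped and was not called (-0.14 ± 0.09 (adjusted p = 0.297)). Of 30 cell cycle genes, 2 lay above, CCND1 (0.53 ± 0.10) and CDK2 (0.43 ± 0.10), and 6 below, among them BUB1 (-0.48 ± 0.08) and CCNE1 (-0.43 ± 0.09). Of 20 p53 and apoptosis genes, 5 lay above, such as BAX (0.44 ± 0.10), and 4 below, such as CDKN1A (-0.40 ± 0.08).

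The distance of 1/7MC from each other group was then compared. Against MC, 14% of all genes were called higher and 9.96% lower. Against 1/7MC+Pyr the shares were 10.4% and 8.2%, and against 1/7MC+Pyr+FGF 17.7% and 10%. MC has 1 library and the others 3, so its contrast has less power and these shares do not rank the groups by distance. These contrasts share the 1/7MC libraries, so their overlap is no independent support. All 3 called 6.41% of all genes higher and 3.11% lower, and among the members 919 of the 1917 genes above and 438 of the 1285 genes below. The median log2 fold change of the genes above was 0.91 against MC, 0.61 against 1/7MC+Pyr and 0.81 against 1/7MC+Pyr+FGF, and MC was the farthest group for 1109 of them (57.9%), while 1/7MC+Pyr was the nearest for 1006 (52.5%). For the genes below the medians were -0.52, -0.46 and -0.48, and MC was the farthest for 633 (49.3%). MC enters these counts as 1 library, which lies at an extreme more readily than a mean of 3. No share over all genes was computed beside the counts of nearest and farthest, so they do not rank the groups either.

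The contrast of 1/7MC+Pyr+FGF with 1/7MC+Pyr uses no 1/7MC library. Over all genes it called 79 higher (0.55%) and 440 lower (3.06%). Of the genes above it called 97 lower (5.06%), such as PMEL and IGF2, and 13 higher (0.678%), such as BAMBI, DKK1 and TBX2. Of the genes below it called 27 higher (2.1%), such as HMGCS1, KRT8 and MMP3, and 18 lower (1.4%). Each supplemented group was also set against MC, whose 1 library makes these the least certain contrasts. In 1/7MC+Pyr, 6.56% of all genes were called higher than in MC and 3.15% lower, and among the genes above 355 (18.5%) were higher and 20 lower. In 1/7MC+Pyr+FGF, 5.86% of all genes were called higher than in MC and 6.13% lower, and among the genes above 256 (13.4%) were higher and 48 lower. Among the genes below, 63 (4.9%) were lower and 8 (0.623%) higher in 1/7MC+Pyr than in MC, and 115 (8.95%) were lower and 41 (3.19%) higher in 1/7MC+Pyr+FGF than in MC. Without 1/7MC+Pyr replicate 1 the 97 became 36, the 27 became 13 and the 18 became 4. Placement itself fixes part of where the other groups lie, so no difference from the background was tested.

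MC replicates 2 and 3 served as a separate look, with their other gene models in mind. Of the genes above, 1652 (86.2%) also lay above both of those libraries, and 1037 (80.7%) of the genes below also lay below both. Over all genes the shares apart from all 9 other libraries were 11.8% above and 7.87% below. The median SD of log2 CPM over all genes tested was 0.14 in 1/7MC, 0.17 in 1/7MC+Pyr and 0.19 in 1/7MC+Pyr+FGF (n = 3 libraries each), beside a median gap of 0.23 for the genes above and 0.13 for the genes below.

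The single MC library weighed on some of the values above. Without it, the log2 fold change was 1.55 for ISL1, 1.25 for NTS, 1.14 for FOXC2, 0.77 for THY1, 1.29 for ISG15, 1.57 for IFI27 and 1.31 for OAS1Y, each still above the other libraries and called. It was likewise 2.04 for BAMBI, 1.91 for IGF2, 2.87 for FAP, 1.80 for GATA3, 3.51 for PAX5, 1.77 for EDNRB and 1.30 for PECAM1, all nearer to 0 than with MC. It was farther from 0 without MC for MLANA (5.82), RLBP1 (5.00) and RAX (3.44), and nearer for SOX10 (-1.19). DLX1 had 5.93 without 1/7MC+Pyr replicate 1. With the 7 others pooled as 1 group the fold change was 2.15 for BAMBI, 1.76 for ISL1, 1.95 for EDNRB, 1.31 for FOXC2 and 1.499 for PECAM1, each still called. In that fit MYC, NTS, THY1, POSTN, ISG15, IFI27, OAS1Y, BMP4, ID1, SOX10, FEZF1, KRT7, VIM, CDH1, EPCAM and RAX were not called, with adjusted p from 0.053 for KRT7 to 0.66 for EPCAM. Single 1/7MC libraries decided further calls: ENO1 was not called without replicate 2 (adjusted p = 0.064), TERT was not called without replicate 1 (adjusted p = 0.055), and SREBF2 was not called without replicate 1 (adjusted p = 0.063) or replicate 3 (adjusted p = 0.052). KIT and OTX2, just outside the threshold, were called lower in several settings, among them DESeq2 with adjusted p of 0.024 for KIT and 0.023 for OTX2.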

How the data were processed

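Poly-A RNA libraries were made with a NEBNext Ultra kit, per the labels' protocols, which mention no marking of strand. Reads of genes that overlap, lie antisense or have close copies can therefore not be told apart. The build was bosTau9 and the tools included featureCounts, Subread 2.0, HISAT2 2.1.0 and fastp 0.19.7, per the submitters' processing notes. Tool order, settings and annotation are not given in the sources used here. The authors deposited whole-number gene counts with no normalization. A second deposited table, named TPM, was not used here. Of 19285 entries, 400 shared an Ensembl or Entrez identifier with another and were dropped. Symbols came from a RefSeq table of ARS-UCD2.0 (18803 of the 18885 entries kept), and no coordinates or sequences are given.

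Genes were filtered with filterByExpr by group, scaled by TMM and tested with edgeR 4.0.16 (glmQLFit, glmQLFTest) in R 4.3.3, with 1 coefficient per group. Also used were limma 3.58.1, DESeq2 1.42.0, Python 3.11.15 and matplotlib 3.10.9. Gaps use log2 CPM with a prior count of 2, and figures add 0.1. The SE is the fold change over the square root of F. A 0 count allows 3 counts, for counting error only. The named genes were, in each direction, the 15 widest gaps and the 8 largest folds among called members, up to 4 per list, and a fixed panel. Outside this rule, and chosen after their values were seen, were the list members ALDH1A3, AXIN2, BMP4, BNIP3, EDNRB, EOMES, ESRRB, FASN, FEZF1, FOXD3, GBX2, HK2, ID1, ID3, ID4, INSIG1, KIT, KLF2, KLF4, KLF5, KRT19, LOX, NODAL, NR5A2, PAX2, RORB, SIX3, SLC2A3, SOX10, SQLE, SREBF1, SREBF2, TBX6, TFCP2L1, TTR and TYRP1, and the imprinted genes that overlapped. PAOX, PKM, SLC44A1 and ZNF394 mark the boundary of membership. Members and lists were chosen with earlier results of these data known. Some genes that this rule names are not reported here. Alternatives covered scaling, filters, DESeq2, the set of other libraries, a replicate block and each library left out. The replicate numbers are shared by the groups, the labels do not say whether they pair the samples, and they were not taken as pairing.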

Additional observations from a re-analysis of the deposited data

How the results depend on the processing

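Most counts moved by less than 1.5 times. With the 7 others pooled as 1 group, edgeR called 1665 genes higher and 1128 lower in 1/7MC, against 2715 and 1746. DESeq2 called 2679 and 2196, sharing 2650 and 1744 with edgeR. Without MC, 810 genes were called lower than each other group, against 446, but a gene then had fewer contrasts to pass. COL1A2 turned to -0.014 in the pooled fit and -0.17 without MC, EPCAM to 0.29, FEZF1 to 0.33 and FOS to 1.05 without MC. With MC replicates 2 and 3 added, 63 genes above were lower in 1/7MC+Pyr+FGF than in 1/7MC+Pyr, against 97. The cause of the remaining shifts was not tested. Without 1/7MC replicate 1 and replicate 3, 1086 and 1133 genes were called lower.

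Leaving out 1 library at a time gave 2050 to 2826 genes called higher, 1086 to 2109 called lower, 1928 to 2277 above and 1360 to 1922 below. Placement is less strict with fewer libraries to clear, and both ranges exceed the counts with all libraries, 1917 above and 1285 below. Genes called against each other group ranged from 675 to 1276 higher and from 273 (without 1/7MC replicate 1) to 810 (without MC replicate 1) lower, with 282 lower without 1/7MC replicate 3. Genes above that were lower in 1/7MC+Pyr+FGF than in 1/7MC+Pyr ranged from 36 to 111 and those higher from 9 to 24. Genes below that were higher ranged from 13 to 40 and those lower from 4 to 34. The lowest of these 4 counts came without 1/7MC+Pyr replicate 1. COL1A2 ranged from -0.17 to 1.20, EPCAM from -0.53 to 0.29, FEZF1 from -1.22 to 0.33 and FOS from -0.23 to 1.05.

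With the replicate number as a block, 2412 genes were called higher and 1482 lower, and the 4 counts were 24, 8, 14 and 4 in the order just given. Of 9 same-number pairs, 2 had a correlation of deviations over 0.1 (range -0.272 to 0.284), so the numbers were not taken as pairing. These correlations cannot show that the samples were unpaired. Of 646 list medians recomputed, 115 moved and 31 changed sign. With a prior count of 0.5, 15 of 15 of the widest gaps above and 13 of 15 below were shared. Depth limits genes such as CXCL13 and HOXC4, which rest on few counts.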
